A study of Mus musculus with 11 samples.

Results

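The genes described are the plasma membrane and organelle carriers of amino acids in 7 solute carrier (SLC) families, taken as every gene symbol that begins with Slc1a, Slc3a, Slc6a, Slc7a, Slc36a, Slc38a or Slc43a and a number. The rule found 64 of the 24319 gene symbols in the expression tables. Of these, 3 are named for the strand opposite a transporter (Slc36a1os, Slc6a19os and Slc7a6os), which leaves 61 transporter genes. A few of the 61 carry substrates that are not amino acids, such as Slc6a8 for creatine, and are named as such.

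The libraries are bulk RNA-seq of mouse cells on the C57BL/6J strain, in 3 groups. B-ALL is B cell acute lymphoblastic leukemia from lymph nodes of 3 leukemic Ebf1+/- Pax5+/- mice (numbered 686, 713 and 760), with 2 libraries per mouse that were averaged. The dHet proB group holds 3 libraries of Ebf1+/- Pax5+/- Rag2-/- pro-B cells, grown from c-Kit+ fetal liver cells on OP9 stromal feeder cells with interleukin 7 (5 ng/ml), Flt3 ligand (10 ng/ml) and stem cell factor (10 ng/ml). The wt proB group holds 2 libraries of pro-B cells sorted as Fraction BC from bone marrow of Ebf1+/+ Pax5+/+ Rag2+/+ control mice. Ebf1 and Pax5 encode transcription factors of B cell commitment, and Rag2 encodes part of the recombinase that rearranges antigen receptor genes. Leukemia, tissue, culture and the labelled Rag2 genotype change together between these groups and cannot be told apart. The labels do not tie the proB libraries of a group to different animals or cultures. The p-values therefore measure only how far these libraries spread, part of which may be technical. The third dHet proB library carries the number 2 in its source name. All levels are FPKM, a fragment count divided by the length of the transcript and by the size of the library.

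Amino acids enter cells through carriers that exchange one amino acid for another, carriers driven by the sodium gradient, and facilitative carriers. Slc3a2 encodes CD98, the heavy chain that brings several Slc7 light chains to the cell surface, and its partner Slc7a5 (LAT1) imports leucine and other large neutral amino acids in exchange for glutamine. Amino acids inside the cell and the lysosome are sensed by the kinase complex mTORC1, and a shortage activates the kinase GCN2 and the transcription factor ATF4, which induces many transporter genes. Proliferating lymphoid cells are known for a high demand for glutamine, leucine and serine.

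All 10 B lineage marker genes were at 1 FPKM or more in each group. Their summed FPKM was 7102 to 9931 in B-ALL, 10287 to 13176 in dHet proB and 9469 to 9510 in wt proB. Summed FPKM of 10 granulocyte and monocyte markers was 27.6 to 260.3 in B-ALL, 13.1 to 42.4 in dHet proB and 536 to 558 in wt proB. Summed FPKM of 6 plasmacytoid dendritic cell markers was 62.4 to 103 in B-ALL, 36.5 to 63.2 in dHet proB and 416 to 630.2 in wt proB. T cell markers (8 genes) summed to 7.05 to 18.5 FPKM in B-ALL, 1.30 to 4.32 in dHet proB and 10.0 to 13.1 in wt proB, and red cell markers (8 genes) to 8.17 to 515 FPKM in B-ALL, 1.77 to 1.81 in dHet proB and 10.1 to 33.5 in wt proB. In bulk libraries, fewer cells of a type and less RNA per cell cannot be told apart. Total reads are unknown. The steps between low FPKM values put the size by which each library was scaled at 64.0% to 100% of the largest. The largest was that of library 1 of mouse 686. Whether this size equals the relative depth in reads is not known, since the scaling is not given.

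Most transporters were at or near 0. Of the 64 genes, 13 were listed at 0 in every library and 29 were above 0 somewhere but under 1 FPKM everywhere. The other 22 reached 1 FPKM in at least 1 library, and 14 did so in every library. Among the genes listed at 0 throughout were Slc1a6 and Slc1a7, both glutamate transporters, Slc6a2, the noradrenaline transporter, and Slc7a10, a neutral amino acid exchanger. Slc7a11, the light chain of the cystine and glutamate exchanger that supplies cysteine, reached at most 0.166 FPKM, and Slc38a5, a glutamine and serine carrier, at most 0.0353 FPKM.

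By family, a mean of 10 FPKM or more in at least 1 group was reached by 1 of 7 Slc1 genes, 1 of 2 Slc3 genes, 1 of 19 Slc6 genes, 4 of 15 Slc7 genes, 0 of 4 Slc36 genes, 4 of 11 Slc38 genes and 2 of 3 Slc43 genes. These counts leave out the 3 opposite-strand genes, of which Slc7a6os was abundant, at 16.4 to 20.3 FPKM in B-ALL libraries, 11.8 to 16.5 in dHet proB and 21.5 to 25.3 in wt proB, and passed in no comparison. The abundant transporters were Slc1a5, Slc3a2, Slc6a6, Slc7a1, the light chains Slc7a5, Slc7a6 and Slc7a7, Slc38a1, Slc38a2, Slc38a7 and Slc38a10, and Slc43a1 and Slc43a3.

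**Figure D1:**
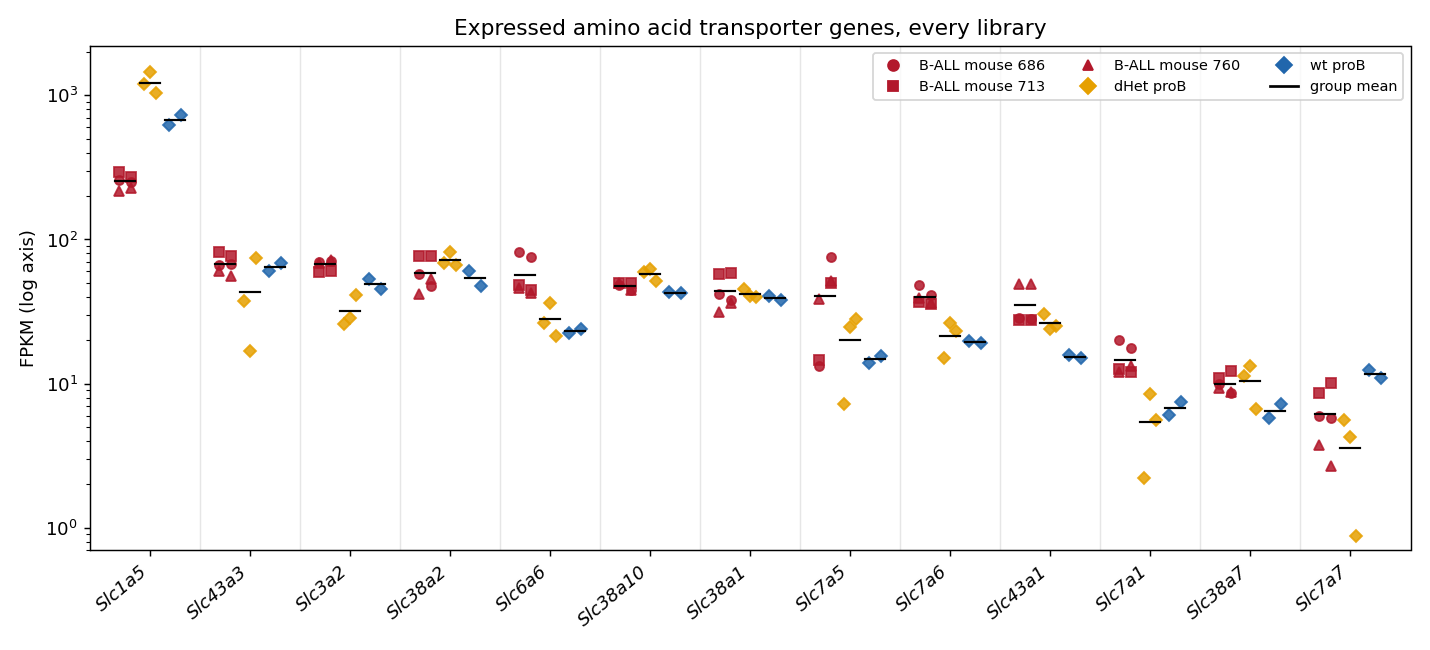
FPKM (log axis) of the transporter genes with a group mean of 10 or more, by group. Each point is a library, and the 2 libraries of each B-ALL mouse are drawn separately. Slc1a5 is the highest gene in each group and lies lowest in B-ALL, while most other genes lie between 10 and 100 FPKM.

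Slc1a5 encodes ASCT2, a sodium-dependent exchanger of neutral amino acids that brings in glutamine. It had the highest level of the 61 transporters in all 3 groups. It stood at 259.7 and 251 FPKM in B-ALL mouse 686, 295 and 273 FPKM in mouse 713, and 215 and 229 FPKM in mouse 760. In the proB groups it stood at 1199, 1030.2 and 1446 FPKM in dHet proB and at 619 and 732 FPKM in wt proB. Every B-ALL library was below every wt proB library, and every wt proB library was below every dHet proB library. Slc1a5 averaged 254 ± 30.9 FPKM in B-ALL (SD, n = 3 mice), 1225 ± 209 in dHet proB (n = 3) and 676 ± 80.0 in wt proB (n = 2). It was 4.79-fold lower in B-ALL than in dHet proB on the FPKM + 1 scale (log2 fold change -2.26 ± 0.19 SE, limma adjusted p = 0.000546) and 2.66-fold lower in B-ALL than in wt proB (-1.41 ± 0.21, adjusted p = 0.00423). Between the proB groups it was higher in dHet proB (log2 fold change 0.85 ± 0.21, adjusted p = 0.0455). The call against wt proB was lost without wt proB library 2 (adjusted p = 0.0661), and the call between the proB groups was lost without either wt proB library (0.319 and 0.178). That call was also lost without mouse 686 (adjusted p = 0.0850), mouse 760 (0.0635), library 2 of mouse 713 (0.0507), or dHet proB library 1 (0.117) or 3 (0.0864).

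Slc1a5 took the largest share of the transporter total in each group. This share of the summed FPKM of the 61 transporters averaged 33.4% in B-ALL (range over mice 32.2% to 35.2%), 76.3% in dHet proB (72.5% to 79.1%) and 64.8% in wt proB (62.6% to 67.1%). With Slc1a5 the transporters summed to 690 to 807 FPKM in B-ALL, 1422 to 1828 in dHet proB and 989 to 1092 in wt proB. Without it, the sums were 468 to 523 FPKM in B-ALL, 349 to 392 in dHet proB and 360 to 370 in wt proB. B-ALL mice were then above all 5 proB libraries, where they had been below them. These sums are a description with no test. In B-ALL the next levels were close to each other: Slc43a3, Slc3a2, Slc38a2 and Slc6a6 averaged 68.1, 67.1, 58.9 and 56.4 FPKM in B-ALL, and their ranges over mice overlapped. In dHet proB Slc38a2 came next by mean, at 66.4 to 82.4 FPKM, above all 3 libraries of Slc38a10, at 51.4 to 62.9 FPKM. Slc43a3, at 16.8 to 74.8 FPKM there, overlapped Slc38a2 and was above it in library 2. In wt proB Slc43a3 came next, at 60.02 to 68.7 FPKM, and overlapped Slc38a2, at 47.4 to 60.1 FPKM.

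**Figure D2:**
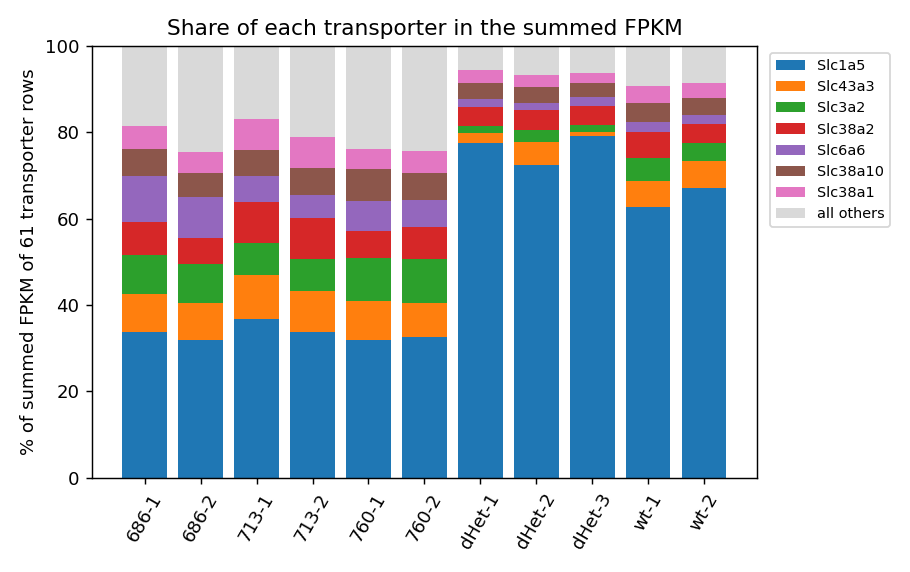
Percent of the summed FPKM of the 61 transporter genes taken by each of 7 genes and by all others, in each of the 11 libraries. Slc1a5 takes about 33.4% in B-ALL mice on average, 76.3% in dHet proB and 64.8% in wt proB.

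Slc1a4 encodes ASCT1, the close relative of Slc1a5 that carries alanine, serine and cysteine. It was low throughout and, unlike Slc1a5, was highest in B-ALL. It stood at 2.59 and 2.10 FPKM in B-ALL mouse 686, 2.30 and 2.08 FPKM in mouse 713, and 2.02 and 2.001 FPKM in mouse 760. It stood at 0.4223, 0.212 and 0.606 FPKM in dHet proB and at 0.187 and 0.284 FPKM in wt proB. All 6 B-ALL libraries were at 2 FPKM or more and all 5 proB libraries were under 1 FPKM. Slc1a4 was higher in B-ALL than in dHet proB (log2 fold change 1.18 ± 0.17, adjusted p = 0.00374) and than in wt proB (1.36 ± 0.19, adjusted p = 0.00314), and between the proB groups it did not pass (adjusted p = 0.634). Against wt proB the call was lost when either wt proB library was left out (adjusted p = 0.0694 and 0.0706). The Slc1a4 promoter is shown because, among the called genes with a window in the tables used, it alone carries the letters of the site bound by ATF4 with a C/EBP partner (TGATGNAA, here on the reverse strand, in capitals, with its first base 4 bases before the start). The window is chr11:20332664-20332963 on the minus strand of GRCm38.p6, from RefSeq, and runs from 250 bases before the gene's start to 50 bases after it.
Slc1a4: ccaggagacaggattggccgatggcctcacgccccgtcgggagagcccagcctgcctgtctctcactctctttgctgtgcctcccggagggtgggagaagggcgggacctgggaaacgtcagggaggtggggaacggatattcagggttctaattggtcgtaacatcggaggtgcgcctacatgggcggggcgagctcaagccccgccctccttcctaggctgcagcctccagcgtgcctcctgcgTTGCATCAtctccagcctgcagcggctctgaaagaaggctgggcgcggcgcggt

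The motif TGATGNAA was searched on both strands in 32851 such windows and was found in 3.97% of them. Promoter windows matched 14 of the 19 tested transporters, by 23 windows, and 3 of these windows held it: that of Slc1a4 and 2 of Slc7a7. The Slc7a7 windows with the motif overlap and share a site, so that site is counted in both. By gene, 2 of the 14 held it, against 4.51% of all genes with windows. A match is a description of letters and does not show binding.

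CD98 and its light chains are the large neutral and cationic amino acid exchangers. Slc3a2, the shared heavy chain, stood at 69.9 and 71.1 FPKM in B-ALL mouse 686, 59.8 and 60.7 FPKM in mouse 713, and 68.6 and 72.1 FPKM in mouse 760. It stood at 26.0, 41.0 and 28.6 FPKM in dHet proB and at 53.0 and 45.7 FPKM in wt proB. Every B-ALL library was above every proB library, and the dHet proB libraries were the lowest. Slc3a2 averaged 67.1 ± 5.88 FPKM in B-ALL (SD, n = 3 mice), 31.9 ± 8.02 in dHet proB (n = 3) and 49.4 ± 5.19 in wt proB (n = 2). It was higher in B-ALL than in dHet proB (log2 fold change 1.07 ± 0.19, adjusted p = 0.00730) and did not pass against wt proB (adjusted p = 0.182) or between the proB groups (-0.64 ± 0.21, adjusted p = 0.111). The last of these passed without dHet proB library 2 (-0.83, adjusted p = 0.0250).

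Slc7a6 encodes y+LAT2, a light chain that exports arginine in exchange for glutamine and other neutral amino acids. It stood at 48.0 and 41.4 FPKM in B-ALL mouse 686, 36.8 and 35.7 FPKM in mouse 713, and 39.5 and 36.2 FPKM in mouse 760. It stood at 15.0, 23.3 and 26.3 FPKM in dHet proB and at 19.7 and 19.1 FPKM in wt proB. Every B-ALL library was above every proB library. Slc7a6 was higher in B-ALL than in dHet proB (log2 fold change 0.88 ± 0.21, adjusted p = 0.0209) and than in wt proB (0.99 ± 0.24, adjusted p = 0.0258), and both calls were lost without mouse 686 (adjusted p = 0.0776 and 0.0826). The call against wt proB was also lost without mouse 760 (adjusted p = 0.0508) or either wt proB library (0.139 and 0.182).

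Slc7a5, the leucine importer LAT1, differed strongly between libraries of the same mouse. It stood at 13.2 and 75.1 FPKM in B-ALL mouse 686, 14.7 and 49.8 FPKM in mouse 713, and 38.5 and 51.5 FPKM in mouse 760, each mouse's library 1 given first. It stood at 7.26, 27.9 and 24.8 FPKM in dHet proB and at 13.96 and 15.5 FPKM in wt proB. In mice 686 and 713, library 1 lay within the proB range and library 2 lay above it. Library 2 exceeded library 1 by 2.42 on the log2 scale in mouse 686, 1.70 in mouse 713 and 0.41 in mouse 760, and no other tested transporter differed by 2-fold or more within a mouse on the FPKM + 1 scale. Of 11110 tested genes, 415, 180 and 30 were at least 2-fold higher in library 2 of mice 686, 713 and 760, and 21, 18 and 10 were at least 2-fold lower. Whether the paired libraries of a mouse are separate samples of its cells is not given in the labels.

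With the libraries of each mouse averaged, Slc7a5 did not pass in B-ALL against dHet proB (log2 fold change 0.93 ± 0.45, adjusted p = 0.162) or wt proB (1.15 ± 0.50, adjusted p = 0.145). With library 2 alone it passed both, with log2 fold changes of 1.68 (adjusted p = 0.0314) and 1.90 (adjusted p = 0.0355). With library 1 alone, a setting chosen after the data were seen, it passed neither. It also passed against wt proB without dHet proB library 1 (adjusted p = 0.0194), and when the B-ALL and wt proB libraries were fitted alone (adjusted p = 0.0262).

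**Figure D3:**
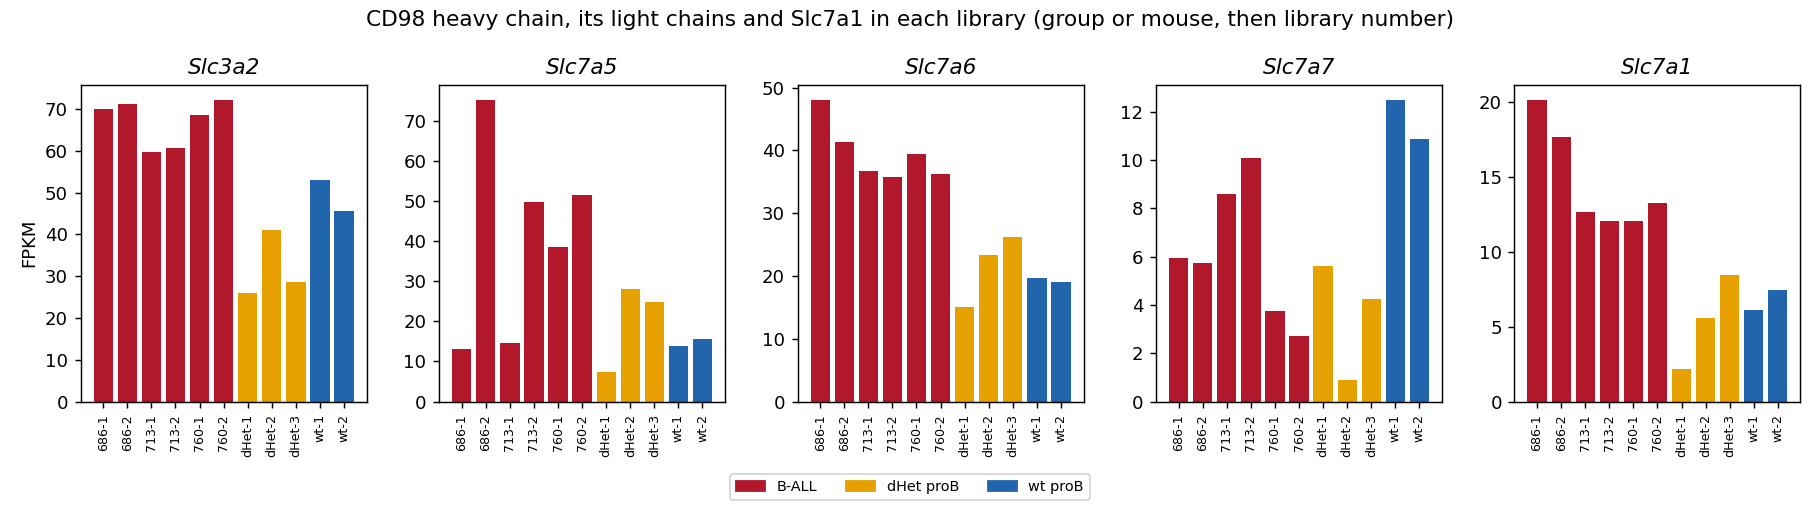
FPKM of Slc3a2, Slc7a5, Slc7a6, Slc7a7 and Slc7a1 in each of the 11 libraries (bars, coloured by group; each panel has its own axis from 0). Slc3a2 and Slc7a6 are higher in all 6 B-ALL libraries than in the 5 proB libraries, while Slc7a5 in mice 686 and 713 is at 13.2 and 14.7 in library 1 and at 75.1 and 49.8 in library 2.

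Slc7a7 encodes y+LAT1, the arginine and lysine exporter of macrophages and of the gut and kidney epithelium. It stood at 5.96 and 5.75 FPKM in B-ALL mouse 686, 8.60 and 10.1 FPKM in mouse 713, and 3.74 and 2.69 FPKM in mouse 760, at 5.62, 0.884 and 4.25 FPKM in dHet proB and at 12.5 and 10.9 FPKM in wt proB. Both wt proB libraries were above all others, and the libraries of B-ALL and dHet proB overlapped. It did not pass in B-ALL against dHet proB (adjusted p = 0.314) or wt proB (0.275), or between the proB groups (log2 fold change -1.65 ± 0.56, adjusted p = 0.120). The wt proB libraries also had the highest sums of granulocyte, monocyte and plasmacytoid dendritic cell markers given above, and the part of such cells in the Slc7a7 level was not tested. Slc7a7 shares 232 exon bases with Oxa1l on the opposite strand in GENCODE M21, and whether reads were counted by strand is not given in the sources used here. On the same grounds Slc6a6, Slc38a9, Slc38a10 and Slc43a2, which share 117, 182, 367 and 922 exon bases with opposite-strand genes of that annotation, are uncertain to that extent.

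Slc7a1 encodes CAT1, which takes up arginine and lysine without CD98. It stood at 20.1 and 17.6 FPKM in B-ALL mouse 686, 12.6 and 12.0 FPKM in mouse 713, and 12.0 and 13.2 FPKM in mouse 760. It stood at 2.198, 5.58 and 8.47 FPKM in dHet proB and at 6.10 and 7.42 FPKM in wt proB. All B-ALL libraries were above all proB libraries, and the proB groups overlapped. Slc7a1 was higher in B-ALL than in dHet proB (log2 fold change 1.39 ± 0.38, adjusted p = 0.0325) and did not pass against wt proB (0.99 ± 0.42, adjusted p = 0.141). With only the compared groups fitted, the call against dHet proB was lost (limma adjusted p = 0.0537). The comparison with wt proB then passed (limma adjusted p = 0.0400). The call against dHet proB did not hold without mouse 686 (adjusted p = 0.109), mouse 760 (0.0570), dHet proB library 1 (0.0619) or library 2 (0.0546), or either wt proB library (0.0549 and 0.0548).

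The Slc38 genes encode sodium-coupled carriers, and none of those tested passed between groups. Slc38a1 (SNAT1) and Slc38a2 (SNAT2) import glutamine, alanine and serine. Slc38a1 stood at 41.9 and 37.98 FPKM in B-ALL mouse 686, 57.4 and 58.2 FPKM in mouse 713, and 31.5 and 36.1 FPKM in mouse 760, at 45.6, 39.9 and 40.7 FPKM in dHet proB and at 40.5 and 38.2 FPKM in wt proB. Slc38a2 stood at 57.6 and 47.6 FPKM in B-ALL mouse 686, 76.6 and 76.3 FPKM in mouse 713, and 42.0 and 53.2 FPKM in mouse 760, at 68.3, 66.4 and 82.4 FPKM in dHet proB and at 60.1 and 47.4 FPKM in wt proB. Mouse 713 was the highest of the mice for both genes. Slc38a10, whose role is less well known, stood at 48.1 and 44.8 FPKM in B-ALL mouse 686, 50.0 and 50.2 FPKM in mouse 713, and 49.9 and 44.4 FPKM in mouse 760, at 59.7, 51.4 and 62.9 FPKM in dHet proB and at 42.98 and 42.7 FPKM in wt proB. The groups overlapped for Slc38a1 and Slc38a2, while the dHet proB libraries were the highest for Slc38a10. Of these 3 genes, Slc38a10 in dHet proB against wt proB had the smallest adjusted p (0.114).

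Slc38a7 (SNAT7), which releases glutamine from lysosomes, stood at 9.89 and 8.60 FPKM in B-ALL mouse 686, 10.9 and 12.2 FPKM in mouse 713, and 9.39 and 8.81 FPKM in mouse 760, at 11.3, 6.64 and 13.2 FPKM in dHet proB and at 5.75 and 7.26 FPKM in wt proB. Its B-ALL and dHet proB libraries overlapped, and it did not pass in any comparison. Slc38a9, the lysosomal arginine sensor that signals to mTORC1, averaged 1.16 ± 0.156 FPKM in B-ALL (SD, n = 3 mice), 2.41 ± 1.16 in dHet proB (n = 3) and 3.05 ± 0.235 in wt proB (n = 2). The mice lay below both wt proB libraries and overlapped dHet proB, and Slc38a9 did not pass against wt proB (log2 fold change -0.92 ± 0.29, adjusted p = 0.0614) or dHet proB (-0.61 ± 0.26, adjusted p = 0.117). Without dHet proB library 2 it passed both (adjusted p = 0.0239 and 0.0243), and without library 3 it passed against wt proB (0.0310). Slc38a9 also passed against wt proB when the B-ALL and wt proB libraries were fitted alone (limma adjusted p = 0.0207). Slc38a6 averaged 0.825 ± 0.312 FPKM in B-ALL (SD, n = 3 mice), 1.05 ± 0.0128 in dHet proB (n = 3) and 1.40 ± 0.408 in wt proB (n = 2) and did not pass in any comparison.

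Slc36a4 encodes PAT4, a proline and tryptophan carrier of the plasma membrane and endolysosomes, known mainly from work on the human gene. It had the largest fold change of the 19 tested transporters in both comparisons with wt proB. It stood at 0.105 and 0.0195 FPKM in B-ALL mouse 686, 0.0222 and 0.0429 FPKM in mouse 713, and 0.0184 and 0 FPKM in mouse 760. It stood at 0.233, 0 and 0.413 FPKM in dHet proB and at 4.73 and 5.12 FPKM in wt proB. Both wt proB libraries were above 4 FPKM and the other 9 libraries were under 1 FPKM, with 1 library of B-ALL and 1 of dHet proB listed at 0. Slc36a4 was lower in B-ALL than in wt proB (log2 fold change -2.52 ± 0.20, adjusted p = 0.000304) and in dHet proB than in wt proB (-2.30 ± 0.20, adjusted p = 0.000436), and B-ALL against dHet proB did not pass (adjusted p = 0.392). On the log2(FPKM + 1) scale these changes are understated, as the lower groups are near 0.

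Without either wt proB library, Slc36a4 no longer met the minimum level to be tested. The plasmacytoid dendritic cell marker Siglech ran the same way, at 0.0150 to 1.65 FPKM in B-ALL, listed at 0 in all dHet proB libraries, and at 132 and 77.3 FPKM in wt proB. All 6 of that cell type's markers and 8 of 10 granulocyte and monocyte markers were lower in B-ALL than in wt proB and in dHet proB than in wt proB, and the part of such cells in the Slc36a4 difference was not tested. Slc36a1 (PAT1), the related lysosomal proton-coupled carrier, reached at most 0.866 FPKM and was not tested.

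The Slc43 family holds facilitative carriers of leucine and other large neutral amino acids, Slc43a1 (LAT3) and Slc43a2 (LAT4), and Slc43a3, which in human and mouse cells carries purine nucleobases. Slc43a1 stood at 28.6 and 28.2 FPKM in B-ALL mouse 686, 27.7 and 27.6 FPKM in mouse 713, and 49.5 and 49.0 FPKM in mouse 760. It stood at 30.5, 25.1 and 23.8 FPKM in dHet proB and at 15.7 and 15.1 FPKM in wt proB. The wt proB libraries were the lowest of all 11, and B-ALL overlapped dHet proB. Slc43a1 was higher in B-ALL than wt proB (log2 fold change 1.09 ± 0.26, adjusted p = 0.0254), a call lost without either wt proB library (0.137 and 0.180). It did not pass against dHet proB (adjusted p = 0.292) or between the proB groups (0.74 ± 0.26, adjusted p = 0.134), though the comparison of the proB groups passed without mouse 760 (adjusted p = 0.0373).

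The Slc43a1 promoter is shown because it holds an E box, CACGTG, the letters bound by Myc and by the lysosomal factors TFEB and TFE3 (in capitals, first base 64 bases before the start). The window is chr2:84840073-84840372 on the plus strand of GRCm38.p6. That of Slc38a7, chr8:95853442-95853741 on the minus strand, is given for contrast, since it holds the same letters (first base 34 bases before the start) and the gene passed in no comparison.
Slc43a1: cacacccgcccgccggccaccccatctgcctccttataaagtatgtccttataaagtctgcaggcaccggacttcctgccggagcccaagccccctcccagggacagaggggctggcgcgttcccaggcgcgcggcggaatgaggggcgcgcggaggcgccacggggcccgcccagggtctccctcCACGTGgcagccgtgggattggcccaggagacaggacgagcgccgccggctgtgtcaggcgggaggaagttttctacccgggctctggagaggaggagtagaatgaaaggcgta
Slc38a7: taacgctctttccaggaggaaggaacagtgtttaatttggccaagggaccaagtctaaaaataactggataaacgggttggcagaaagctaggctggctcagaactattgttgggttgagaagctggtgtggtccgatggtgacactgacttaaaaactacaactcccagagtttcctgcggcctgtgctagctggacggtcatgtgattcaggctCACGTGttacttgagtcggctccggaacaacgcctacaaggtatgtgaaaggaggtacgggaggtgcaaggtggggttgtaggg

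CACGTG, which reads the same on both strands, was in 7.15% of the 32851 windows and in 2 of the 23 windows of tested transporters, those of Slc43a1 and Slc38a7. Neither of these windows holds TGATGNAA. Nothing follows from a missing match about any factor.

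Slc43a2 averaged 7.43 ± 2.65 FPKM in B-ALL (SD, n = 3 mice), 5.64 ± 1.98 in dHet proB (n = 3) and 4.72 ± 0.114 in wt proB (n = 2). Slc43a3 stood at 66.9 and 67.1 FPKM in B-ALL mouse 686, 82.2 and 76.3 FPKM in mouse 713, and 60.5 and 55.4 FPKM in mouse 760, at 37.7, 74.8 and 16.8 FPKM in dHet proB and at 60.02 and 68.7 FPKM in wt proB. It spread widely in dHet proB, where library 2 was within the B-ALL range and the others were below it. Neither gene passed in a comparison, though Slc43a3 passed in B-ALL against dHet proB without dHet proB library 2 (log2 fold change 1.39, adjusted p = 0.0251).

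Among the 19 Slc6 genes, which carry neurotransmitters, creatine, taurine and neutral amino acids, Slc6a6, the taurine transporter, was the abundant one. It stood at 81.8 and 75.0 FPKM in B-ALL mouse 686, 48.1 and 44.5 FPKM in mouse 713, and 46.2 and 42.6 FPKM in mouse 760. It stood at 26.4, 21.3 and 36.02 FPKM in dHet proB and at 22.3 and 23.9 FPKM in wt proB. Every B-ALL library was above every proB library, and mouse 686 was the highest. Slc6a6 was higher in B-ALL than in dHet proB (log2 fold change 0.97 ± 0.26, adjusted p = 0.0315) and than in wt proB (1.201 ± 0.29, adjusted p = 0.0280). Both calls were lost without mouse 686 (adjusted p = 0.0859 and 0.0607) or without either wt proB library (0.0556 and 0.0557 against dHet proB, 0.163 and 0.168 against wt proB). The call against dHet proB was also lost without dHet proB library 1 (adjusted p = 0.0956) or library 2 (0.0772). Fitting the B-ALL and dHet proB libraries alone lost that call too (limma adjusted p = 0.0545).

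Counted over the list, 20 of the 64 genes reached the minimum level of 1 FPKM in 2 of the 8 mice and proB libraries and were tested: 19 transporters and Slc7a6os. In B-ALL against dHet proB, 5 were higher (Slc1a4, Slc3a2, Slc6a6, Slc7a1 and Slc7a6) and 1 was lower (Slc1a5), which is 30.0% of those tested, against 25.5% of all 11110 genes tested (14.5% higher and 11% lower). In B-ALL against wt proB, 4 were higher (Slc1a4, Slc43a1, Slc6a6 and Slc7a6) and 2 were lower (Slc1a5 and Slc36a4), again 30.0%, against 18.2% of all genes (8.15% higher and 10% lower). In dHet proB against wt proB, Slc1a5 was higher and Slc36a4 lower, 10.0% of those tested, against 8.68% of all genes (2.18% higher and 6.5% lower). Slc1a4 reached 1 FPKM only in B-ALL and Slc36a4 only in wt proB, so each entered the test through the group where it is high. Their calls, and their part in the shares of tested genes called, follow in part from that filter. The comparisons share libraries and are not independent of each other. Markers of several cell types also differed with B-ALL. Against dHet proB, 5 of 6 T cell markers tested, 2 of 5 red cell markers, 1 of 4 plasma cell markers (Jchain), 1 of 10 granulocyte and monocyte markers (Csf1r) and 1 of 6 plasmacytoid dendritic cell markers (Bst2) were higher in B-ALL, and 4 of 10 B lineage markers were lower (Cd24a, Blnk, Pax5 and Ebf1). Against wt proB, 3 T cell markers were higher and 1 lower, 1 plasma cell marker was higher (Mzb1) and 1 lower (Sdc1), and 3 of 10 B lineage markers were lower (Cd24a, Blnk and Ebf1). Summed plasma cell markers (5 genes) were 1394 to 1590.2 FPKM in B-ALL, 839 to 1713 FPKM in dHet proB and 964 to 1004 FPKM in wt proB. Of the 8 T cell and the 8 red cell markers, 4 each were at 0 in all dHet proB libraries. The part of such cells in the transporter differences was not tested.

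The median log2 fold change of the 20 tested genes was 0.35 in B-ALL against dHet proB (0.04 over all genes), 0.25 in B-ALL against wt proB (-0.02 over all genes) and 0.10 in dHet proB against wt proB (-0.04 over all genes). The counts depended on single libraries. Against dHet proB, 3 were called without mouse 686, when 12.7% of all genes were called, against 25.5% in the main fit. Leaving out either wt proB library leaves 1 library in that group. In both comparisons with wt proB, calls among the transporters and over all genes then fell together. Rescaled to TPM, which moved the median log2 fold change of all genes by -0.15 in B-ALL against dHet proB and by -0.20 in B-ALL against wt proB, 3 were called in each of these comparisons. The calls of Slc6a6 and Slc7a6 were then lost in both, that of Slc43a1 against wt proB and that of Slc7a1 against dHet proB. In that scale 23.8% of all calls were higher in B-ALL than wt proB, against 44.9% as deposited, and 38.8% were higher in B-ALL than in dHet proB, against 57.0% as deposited.

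**Figure D4:**
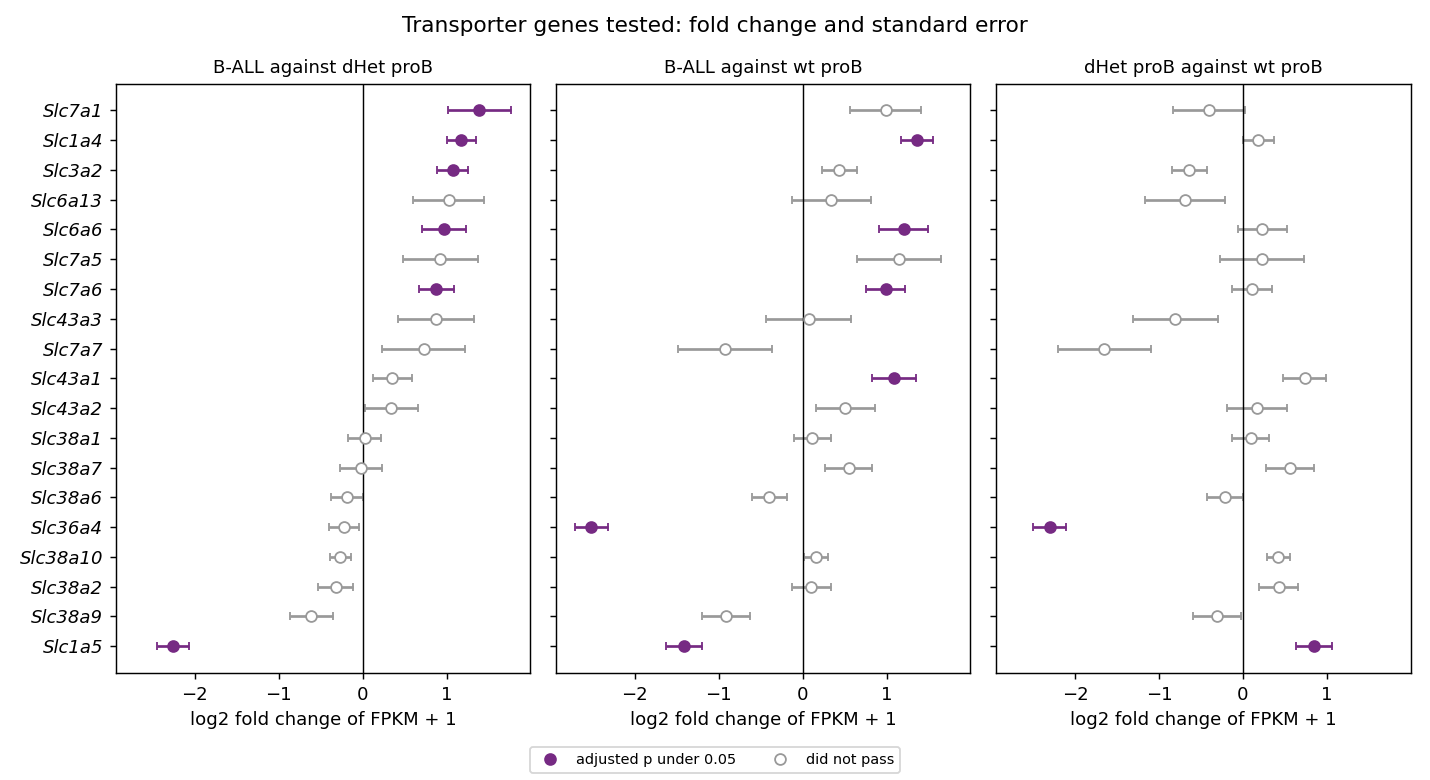
Log2 fold change of FPKM + 1 for the 19 tested transporters in each comparison, with bars of 1 standard error; filled points passed limma with an adjusted p under 0.05. B-ALL against dHet proB holds 5 higher and 1 lower, B-ALL against wt proB 4 higher and 2 lower, and dHet proB against wt proB 1 higher and 1 lower.

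The 3 leukemias differed from each other in some transporters. A test across the mice, with the spread of libraries within each group as the error, called 7 of 22 genes tested (31.8%), against 22.3% of 11293 genes. The 4 with the largest F statistics were Slc6a13, Slc6a19, Slc38a8 and Slc43a1. The other 3 were Slc38a1 (adjusted p = 0.00531), Slc6a6 (0.0326) and Slc38a2 (0.0468). Slc6a19 and Slc38a8 reached 1 FPKM only in mouse 713, and Slc6a13 only in mice 686 and 713. These genes entered the test through the mice where they are high. Their calls and their part in the 31.8% follow in part from that filter.

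Slc6a13 encodes GAT2, a carrier of GABA and taurine. It stood at 1.82 and 2.03 FPKM in B-ALL mouse 686, 3.37 and 2.34 FPKM in mouse 713, and 0.0980 and 0.0340 FPKM in mouse 760. It stood at 0.0415, 0.202 and 0.122 FPKM in dHet proB and at 0.856 and 0.753 FPKM in wt proB. Mice 686 and 713 were above all proB libraries, and mouse 760 was below both wt proB libraries (limma F test across mice, adjusted p = 5.23e-05). Averaged over mice, it did not pass against dHet proB (log2 fold change 1.03 ± 0.42, adjusted p = 0.110) or wt proB (0.34 ± 0.47, adjusted p = 0.646), while without mouse 760 it passed both (1.58, adjusted p = 0.00289, and 0.89, adjusted p = 0.0312).

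Slc6a19 encodes B0AT1, the neutral amino acid carrier of gut and kidney. It stood at 0.0579 and 0.241 FPKM in B-ALL mouse 686, 3.70 and 3.38 FPKM in mouse 713, and 0.227 and 0.310 FPKM in mouse 760. It stood at 0.849, 0.141 and 0.231 FPKM in dHet proB and at 0.196 and 0.208 FPKM in wt proB. Only mouse 713 exceeded 1 FPKM (adjusted p = 0.000216 across mice). Slc38a8, a sodium-coupled carrier of glutamine, stood at 0.673 and 0.639 FPKM in B-ALL mouse 686, 1.23 and 1.45 FPKM in mouse 713, and 0.0392 and 0.0409 FPKM in mouse 760, at 0.217, 0.147 and 0 FPKM in dHet proB and at 0.0361 and 0 FPKM in wt proB. Again mouse 713 was highest, with mouse 686 in between and mouse 760 at the level of the proB groups (adjusted p = 0.000293 across mice).

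Slc43a1 was highest in mouse 760, at 49.5 and 49.0 FPKM, while mice 686 and 713 lay at 27.6 to 28.6 FPKM, within the dHet proB range (adjusted p = 0.00327 across mice). Slc38a1 and Slc38a2 were highest in mouse 713 and Slc6a6 in mouse 686, so no single mouse was high throughout. Slc1a5, Slc1a4, Slc3a2 and Slc7a6 did not pass across mice (adjusted p = 0.372, 0.775, 0.626 and 0.602). Without either library of mouse 713, 2 genes were called across mice, Slc6a13 and Slc43a1, and Slc6a19 and Slc38a8 no longer reached the minimum level. Slc6a6 and Slc38a2 were not called across mice when any 1 of the 6 B-ALL libraries was left out (adjusted p up to 0.185 for Slc6a6 and 0.234 for Slc38a2).

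**Figure D5:**
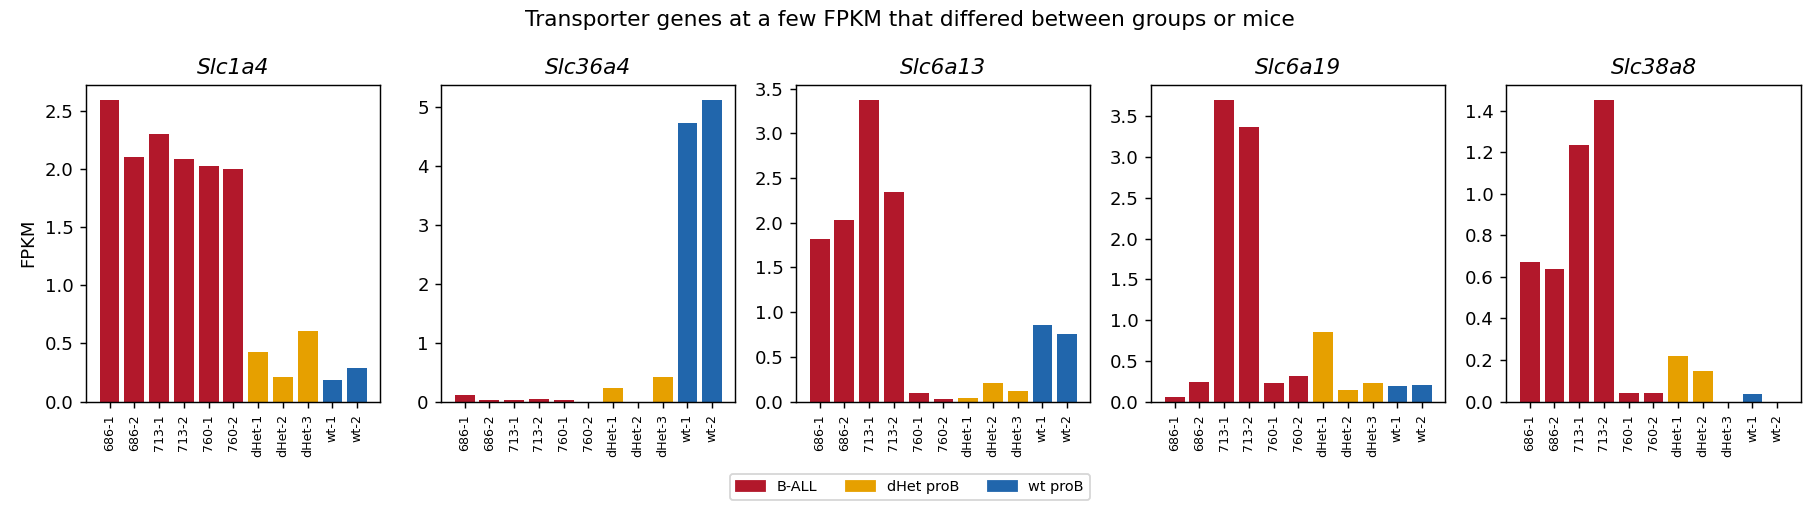
FPKM of Slc1a4, Slc36a4, Slc6a13, Slc6a19 and Slc38a8 in each of the 11 libraries (bars, coloured by group; each panel has its own axis from 0). Slc1a4 is at 2 FPKM or more in all 6 B-ALL libraries, Slc36a4 is above 4 in the 2 wt proB libraries alone, and the other 3 genes differ between the leukemic mice, with mouse 713 the highest.

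Among genes that sense amino acids for mTORC1 (39 listed, 36 tested), 3 were higher and 6 lower in B-ALL than in dHet proB, with a median log2 fold change of 0.06. The largest changes upward were in Deptor (2.48, adjusted p = 0.0272), an mTOR inhibitor, and Gatsl3 (0.90, adjusted p = 0.00863), the arginine sensor CASTOR1. The largest downward were in Fnip1 (-1.61, adjusted p = 0.00114), a partner of folliculin in activating Rag GTPases, and Gatsl2 (-1.21, adjusted p = 0.00539), a relative of CASTOR1.

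In B-ALL against wt proB, 2 of the 36 were higher, Sesn1 (1.46, adjusted p = 0.0294), a leucine-binding sestrin, and Gatsl3 (0.73, adjusted p = 0.0324). Lower were Gatsl2 (-1.65, adjusted p = 0.00246) and Fnip1 (-0.90, adjusted p = 0.0145), and the median was 0.12. Gatsl3 reached 1 FPKM only in B-ALL, so its calls against dHet proB and wt proB follow in part from the minimum level for testing. In dHet proB against wt proB, 4 were higher and 0 lower, with a median of 0.19, led by Rragd (1.82, adjusted p = 0.0167), a Rag GTPase that brings mTORC1 to the lysosome, and Sesn1 (1.51, adjusted p = 0.0397). The shares called, 25% in B-ALL against dHet proB, 11.1% in B-ALL against wt proB and 11.1% in dHet proB against wt proB, stand beside 25.5%, 18.2% and 8.68% of all genes.

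Of 23 genes of the amino acid response by GCN2 and ATF4, 21 were tested. In B-ALL against dHet proB, 4 were higher and 3 lower, with a median of 0.02. The largest changes were higher Phgdh (2.33, adjusted p = 0.00722) and Shmt2 (1.998, adjusted p = 0.00462), enzymes of serine and one-carbon metabolism, and lower Asns (-3.77, adjusted p = 0.00252), which makes asparagine, and Ddit3 (-1.36, adjusted p = 0.0198), the stress transcription factor CHOP.

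Asns stood at 0.257 and 0.196 FPKM in B-ALL mouse 686, 0.134 and 0.108 FPKM in mouse 713, and 0.0185 and 0 FPKM in mouse 760, at 9.41, 36.3 and 8.10 FPKM in dHet proB and at 1.94 and 2.13 FPKM in wt proB. Every B-ALL library was below every proB library. Phgdh, the first enzyme of serine synthesis, stood at 464 and 464 FPKM in B-ALL mouse 686, 333 and 342 FPKM in mouse 713, and 464 and 396 FPKM in mouse 760, at 52.0, 168 and 58.3 FPKM in dHet proB and at 219 and 205 FPKM in wt proB. Its B-ALL libraries were above all proB libraries, so members of the list moved both ways in the same comparison.

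In B-ALL against wt proB, 4 of the 21 were higher and 3 lower, with a median of 0.28. The largest changes were in Shmt2 (1.74, adjusted p = 0.0119) and Pck2 (1.47, adjusted p = 0.00776), the mitochondrial phosphoenolpyruvate carboxykinase, upward, and in the transcription factors Atf3 (-2.49, adjusted p = 0.00176) and Ddit3 (-2.28, adjusted p = 0.00520) downward. In dHet proB against wt proB, Asns (2.33, adjusted p = 0.0356) and Pck2 (1.19, adjusted p = 0.0262) were higher and Atf3 (-2.22, adjusted p = 0.00351) and Atf4 itself (-1.08, adjusted p = 0.0231) lower, with a median of -0.04. Atf4 averaged 47.7 FPKM in B-ALL, 47.5 in dHet proB and 99.8 in wt proB, and it was also among the genes called lower in B-ALL than in wt proB. The shares called, 33.3% in both B-ALL comparisons and 19% between the proB groups, stand beside the same shares of all genes given above. Of the 22 pathway changes named here with a p-value, 8 were called in every fit that left out a mouse or library and tested them. These were Phgdh, Shmt2, Asns, Gatsl3, Fnip1 and Gatsl2 in B-ALL against dHet proB, and Atf3 in both comparisons with wt proB. Among these 8, Gatsl3 reached 1 FPKM only in B-ALL and Atf3 only in wt proB, so each entered the test through the group where it is high. Atf3 went untested without either wt proB library. Those fits could not lose its calls. The call was lost without at least 1 wt proB library in 12 of the others, and Deptor and Ddit3 in B-ALL against dHet proB were lost without mouse 686 or dHet proB library 1 or 2, Deptor also without library 3.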

How the data were processed

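Values are FPKM as deposited by the authors, 1 table per library. Reads were demultiplexed with bcl2fastq (versions 0.3.1 and 2.20.0.422 are both named), aligned to mm9 with STAR 2.5.3a and quantified with Cufflinks and Cuffnorm 2.2.1, per the submitters' processing notes, which give names and versions without roles; the roles given here are the tools' usual ones. Of the gene annotation, the Cuffnorm scaling and the use of strand, nothing is given in the sources used here. FPKM are not counts and total reads are unknown, so no counting interval is given.

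B-ALL libraries were averaged within mice, giving 8 units. Genes at 1 FPKM or more in 2 units or more were tested on log2(FPKM + 1) with limma 3.58.1 (R 4.3.3, trended moderation, with statmod 1.5.0 for blocks), in 1 fit of the 3 groups, with Benjamini-Hochberg adjustment over all 11110 genes and a threshold of 0.05. Such fold changes understate those of low genes. Differences between mice used an F test over 11 libraries in 5 groups. The fits were tested on simulated data. In B-ALL, same-numbered libraries of different mice deviated together (r = 0.135 to 0.64 across genes), so a fit of the mice with the library number as a block was also run.

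Transporters with a group mean of 10 FPKM or more, those called in a comparison, and the 4 with the largest F statistics across mice were named with values, as were up to 2 called genes per direction from each pathway list. Transporters outside this rule (Slc38a6, Slc38a9, Slc43a2, Slc36a1, Slc7a11 and Slc38a5) were named for their role in these families or the lysosome. The genes, lists and markers were chosen with earlier results of these data known. Promoters are RefSeq sequences of GRCm38.p6 and gene overlaps are from GENCODE M21; neither is the build of the tables, and no mm9 coordinates were used. Alternatives covered left-out libraries, the pseudocount, the filter, TPM, quantile normalization and other designs. Figures were drawn with matplotlib 3.10.9.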

Additional observations from a re-analysis of the deposited data

How the results depend on the processing

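No called fold change between groups (14 pairs of gene and comparison) changed sign in any alternative run, and 5 were called in every fit without a library or mouse that still tested them: Slc36a4 in both comparisons with wt proB, and Slc1a4, Slc1a5 and Slc3a2 in B-ALL against dHet proB. Slc36a4 reached 1 FPKM only in wt proB and went untested without either wt proB library, so those fits could not lose its calls. Slc1a4 reached that level only in B-ALL. Of 32 pairs that passed in no setting, 11 changed sign in at least 1. Leaving out libraries or mice gave 3 to 6 called transporters in B-ALL against dHet proB, 0 to 7 in B-ALL against wt proB, 0 to 3 in dHet proB against wt proB and 2 to 5 across mice, where a lone wt proB library is assumed to vary like the other groups. The share of all genes called also moved in these fits, from 12.6% to 26.9% in B-ALL against dHet proB. TPM gave 3, 3 and 1 in the comparisons in the order above, with 24.6%, 18.9% and 9.35% of all genes called. Between the proB groups, quantile normalization gave 1, with 9.81% of all genes called, and fitting these groups alone gave 1, with 11.4%. Using library 1 of each mouse (chosen after the data were seen) gave 1, with 7.99%. Requiring 1 FPKM in 3 units gave 0 in limma (6 at an unadjusted p under 0.05), with 6.13%. In quantile-normalized values 46.5% of all calls were higher in B-ALL than in dHet proB (57.0% as deposited) and 41.8% higher in dHet proB than in wt proB (25.1% as deposited). Fitting the 6 B-ALL libraries alone gave 12 genes across mice. The share of all genes called across mice was not counted in any alternative. The cause of these changes in the calls was not tested. Shared library numbers were not shown to pair dHet proB with wt proB (same-number r = -0.00562 and 0.01). For this comparison 11 libraries in 5 groups gave 8 calls unblocked and 6 with the replicate block. Of all genes, 20.7% were called unblocked and 24.9% with the block. Across mice the replicate block gave 8, adding Slc43a2 (adjusted p = 0.0417, against 0.0567 unblocked), and changed no other call. With 2 wt proB libraries, comparisons with that group rest on both.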

Other observations

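Library 2 of dHet proB was chosen for mention after its values were seen. It was the highest of its group for 15 of the 23 listed genes of the amino acid response by GCN2 and ATF4, the lowest for 4 and neither for 4. How often that library was highest over all genes was not counted, so nothing particular to these genes follows. Asns stood at 36.3 FPKM there, against 9.41 and 8.10 FPKM in libraries 1 and 3, and Phgdh at 168 FPKM, against 52.0 and 58.3 FPKM. Atf4 stood at 61.002 FPKM, against 39.5 and 42.1 FPKM, and Slc3a2 at 41.0 FPKM, against 26.0 and 28.6 FPKM. Slc7a5 stood at 27.9 FPKM, against 7.26 and 24.8 FPKM. Slc1a5 was lowest in the same library, at 1030.2 FPKM, against 1199 and 1446 FPKM. Pck2 and Trib3 of the same list were also lowest there, at 60.8 FPKM, against 91.0 and 74.6 FPKM, and at 17.8 FPKM, against 27.7 and 29.1 FPKM. No test applies within 1 group.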
